A study of Mus musculus with 6 samples.

Results

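Genes that encode granule and other abundant proteins of neutrophils were followed through maps of open chromatin in Utx-knockout and wild-type blood progenitors. The 10 members were Mpo, Elane, Prtn3, Ctsg, Fcnb, Camp, Ngp, Ltf, S100a8 and S100a9, chosen by name as a functional group, with earlier results of these data known. Every called peak in or within 20 kb of their RefSeq gene spans was taken, with the surroundings of the neighbours Prtn3 and Elane, and of S100a8 and S100a9, joined, so that 10 genes gave 8 loci. Peaks that overlapped by 1 bp or more, whichever sample they came from, were joined into regions. There were 61 such regions at the 8 loci, of 75961 in the whole series, and the 10 genes stand among 21896 protein-coding genes of the annotation.

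The assay was ATAC-seq, which marks accessible DNA through the insertions of a transposase that carries sequencing adapters, on lineage-depleted bone marrow cells. Lineage depletion removes cells that carry antigens of mature blood cells and so enriches stem and progenitor cells. Of the 6 samples, 3 came from mice without Utx (genotype label UTX_KO, Utx-/-) and 3 from wild-type mice (UTX_WT, Utx +/+), all of strain C57BL/6. Utx, also named Kdm6a, encodes a histone demethylase. The labels give no age, no agent and no account of how Utx was deleted, and do not say whether samples of a genotype came from separate animals, so the spread between samples may be technical. Knockout samples 1, 2 and 3 had 45260, 50249 and 44576 peaks in all, and wild-type samples 1, 2 and 3 had 57405, 57917 and 57622. The knockout lists were shorter in every case, and the read depth behind them is unknown. The lists hold positions and no heights, so a peak is present or absent and has a width. A wider call, or a call at all, can come from a more open site or from a deeper or cleaner library.

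Neutrophils store antimicrobial proteins in granules that are filled one kind after another while the cell matures. Azurophil granules are filled at the promyelocyte stage with myeloperoxidase (Mpo) and the serine proteases neutrophil elastase (Elane), proteinase 3 (Prtn3) and cathepsin G (Ctsg). Specific granules are filled later, at the myelocyte and metamyelocyte stages, with lactoferrin (Ltf), the cathelicidin precursor (Camp) and neutrophilic granule protein (Ngp). Ficolin B (Fcnb) is a lectin that binds sugar patterns on microbes. S100a8 and S100a9 encode the subunits of calprotectin, a calcium- and zinc-binding complex that lies mainly in the cytosol of neutrophils and monocytes.

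Upstream sequences are shown for members with a promoter peak in all 3 wild-type samples, the sites whose widths are given below. Each line holds the 250 bases before the start site, 5′ to 3′, from RefSeq in build GRCm38.p6, the assembly also called mm10. All 10 members had an entry. Capitals mark matches on either strand to 6 short motifs. The C/EBP motif was TTGCNNAA, while the PU.1 motif was GAGGAA, and another form of ETS site was searched as CCGGAA. The GATA motif was AGATAA, whereas the RUNX motif was TGTGGT, and the MYB motif was AACGG. No matches of different motifs overlapped in the members.
Mpo (chr11:87793534-87793783, plus strand): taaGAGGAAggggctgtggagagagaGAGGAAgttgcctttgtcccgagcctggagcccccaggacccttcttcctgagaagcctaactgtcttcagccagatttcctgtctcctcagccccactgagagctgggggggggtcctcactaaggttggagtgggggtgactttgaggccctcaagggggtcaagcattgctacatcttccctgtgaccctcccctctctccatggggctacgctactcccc
Prtn3 (chr10:79879417-79879666, plus strand): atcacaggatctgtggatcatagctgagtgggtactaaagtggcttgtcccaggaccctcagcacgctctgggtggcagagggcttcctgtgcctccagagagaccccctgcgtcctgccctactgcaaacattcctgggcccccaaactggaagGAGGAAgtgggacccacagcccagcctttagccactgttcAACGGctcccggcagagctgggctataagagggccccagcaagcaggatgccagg
Elane (chr10:79886062-79886311, plus strand): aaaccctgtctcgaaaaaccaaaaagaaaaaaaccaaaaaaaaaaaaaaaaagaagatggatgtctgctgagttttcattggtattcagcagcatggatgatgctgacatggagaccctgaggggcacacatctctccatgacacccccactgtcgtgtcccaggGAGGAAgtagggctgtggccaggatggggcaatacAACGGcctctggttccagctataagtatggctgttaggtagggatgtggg
Ctsg (chr14:56102575-56102824, minus strand): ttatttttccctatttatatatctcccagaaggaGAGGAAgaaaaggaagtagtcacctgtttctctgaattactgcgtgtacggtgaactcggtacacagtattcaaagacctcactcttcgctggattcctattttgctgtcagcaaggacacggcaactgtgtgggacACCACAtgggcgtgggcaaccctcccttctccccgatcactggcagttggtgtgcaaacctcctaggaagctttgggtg
Fcnb (chr2:28084879-28085128, minus strand): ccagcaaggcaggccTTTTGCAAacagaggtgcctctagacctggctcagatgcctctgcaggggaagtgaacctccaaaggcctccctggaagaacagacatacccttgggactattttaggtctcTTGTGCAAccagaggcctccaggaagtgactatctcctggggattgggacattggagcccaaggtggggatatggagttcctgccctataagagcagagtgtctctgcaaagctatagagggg
Camp (chr9:109849457-109849706, minus strand): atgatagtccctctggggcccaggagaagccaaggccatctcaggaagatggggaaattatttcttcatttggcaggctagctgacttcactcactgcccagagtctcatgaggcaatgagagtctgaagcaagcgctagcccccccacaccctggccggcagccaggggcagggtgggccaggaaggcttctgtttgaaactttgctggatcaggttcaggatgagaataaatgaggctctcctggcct
S100a8 (chr3:90668821-90669070, plus strand): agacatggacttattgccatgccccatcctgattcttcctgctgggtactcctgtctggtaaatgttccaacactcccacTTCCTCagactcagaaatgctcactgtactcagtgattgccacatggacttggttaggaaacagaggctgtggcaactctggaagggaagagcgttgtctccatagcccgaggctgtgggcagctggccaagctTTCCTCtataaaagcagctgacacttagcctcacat

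The PU.1 motif stood in all 4 azurophil promoters and also in those of Ltf and S100a8, 6 of the 10 members, and in 22.2% of the same windows at 21237 RefSeq promoters of protein-coding genes. In Prtn3 the match began 95 bases before the start site and was followed by the MYB motif at 55 bases. Elane, its neighbour and a related protease gene, had the same order, with the PU.1 motif at 85 and the MYB motif at 50 bases. The MYB motif was in no other member and in 16.0% of all windows. Mpo held the PU.1 motif at 247 and 224 bases, and Ctsg held it at 216 bases with a RUNX match at 79 bases. The C/EBP motif stood in 4 members, Fcnb, Ngp, Ltf and S100a9, against 9.10% of all windows, with matches at 235 and 123 bases in Fcnb. Camp held none of the 6 motifs, and the ETS form was in 0 of the 10 members against 15.0% of all windows. These are matches of letters and do not show that a factor binds there.

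Across the 8 loci, knockout samples had fewer and narrower peaks. They had 35, 40 and 29 peaks in knockout samples 1, 2 and 3, against 55, 51 and 47 in wild-type samples 1, 2 and 3, which is 34.7 ± 5.51 and 51 ± 4 (SD, n = 3 each). The bases inside peaks were 19371, 24684 and 18785 bp in knockout and 36647, 34735 and 32117 bp in wild type, so the knockout mean was 60.7% of the wild-type mean. All 3 knockout samples lay below all 3 wild-type samples on both measures. Set against list length, the peaks near the members were 0.0740% ± 0.00783 of the knockout lists and 0.0885% ± 0.00713 of the wild-type lists (SD, n = 3 each), again without overlap. The loci differed in this share. It was lower in every knockout sample at Mpo (75.3% of wild type), Fcnb (51.8%) and Ltf (51.3%). At Camp (137%) and at S100a8 and S100a9 (123%) it was higher in every knockout sample. The groups overlapped at Prtn3 and Elane (84.4%), Ctsg (91.0%) and Ngp (111%). Peak numbers at Camp were 3, 4 and 3 in knockout and 3 in each wild-type sample. At S100a8 and S100a9 they were 5, 5 and 4 in both genotypes. Every knockout list was shorter, so near-equal peak numbers give a higher share in knockout by arithmetic alone. Bases in peaks there overlapped, with knockout means of 85.7% (Camp) and 90.3% (S100a8 and S100a9) of wild type. In a bulk sample, fewer cells that have a site open and a less open site in each cell cannot be told apart.

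Of the 61 regions, 5 were lost (a peak in all 3 wild-type and 0 knockout samples), or 8.20%, where 10.7% of the 62091 regions near any protein-coding gene were lost. None was gained (a peak in all 3 knockout and 0 wild-type samples), 0 of 61, where 4.05% were gained near any gene. With regions present in all 3 wild-type samples as the base, 5 of 41 were lost (12.2%) and 17.0% near any gene. A peak in knockout samples only was found in 4 regions (6.56%, against 10.7% near any gene), and one in wild-type samples only in 17 (27.9%, against 28.5%). The lost count and its side of the background depended on the setting. Without wild-type sample 3 it was 10 of 59 regions (16.9%), against 13.7% near any gene. With the widest 50% of each list it was 6 of 34 (17.6%), against 10.5%. The lost share lay above that near any gene in 7 of the 12 alternatives run, and below it in the others and in the main setting. The 5 lost regions were 3 at Fcnb, 1 at Mpo and 1 at Prtn3 and Elane.

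Narrower peaks outnumbered lost regions. Of the 25 regions with a peak in all 6 samples, 11 (44.0%) were narrower in every knockout sample than in every wild-type sample, and 1 was wider in every knockout sample. Near any protein-coding gene, 27.7% of 26639 such regions were narrower and 11.9% wider, so among regions with a peak in all 6 samples a shift to narrower peaks was common. Whole lists went the other way. Their median peak width was 427, 432 and 441 bp in knockout samples 1, 2 and 3, and 409, 403 and 411 bp in wild-type samples 1, 2 and 3. The median over regions of the knockout width was 84.2% of the wild-type width at the 8 loci and 93.0% near any gene. The narrower count was 17 of 25 without knockout sample 2. The share near any gene was not computed in that setting, and the call is easier to meet with fewer knockout samples. For each region or locus named here whose groups do not overlap, the two-sided exact permutation test gave p = 0.1, the smallest that 3 samples against 3 allow, so no single one can pass 0.05.

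**Figure D1:**
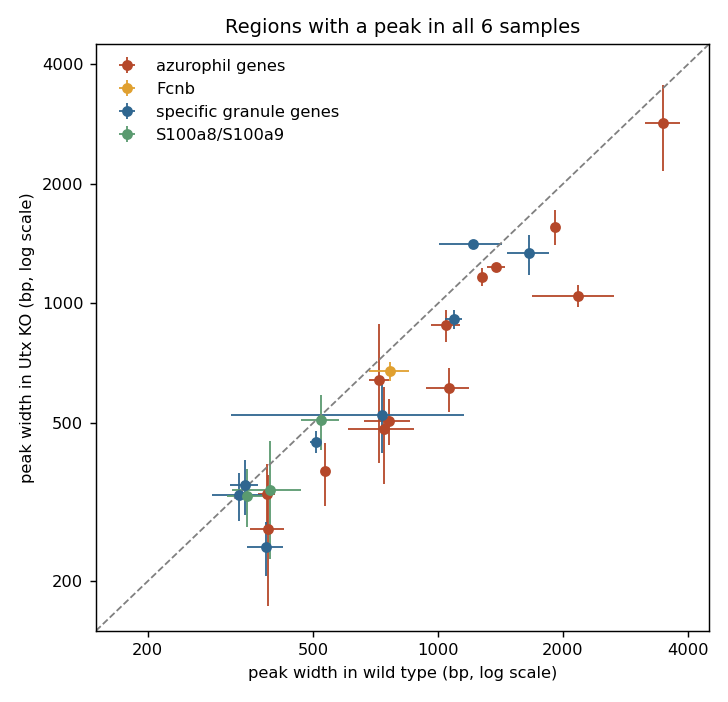
Peak width in Utx knockout (vertical axis, bp) against wild type (horizontal axis, bp), both on log scales, for the 25 regions with a peak in all 6 samples. Points are means and bars are SDs over 3 samples, with peaks of 1 sample in a region summed; the dashed line marks equal width, and the point farthest below it near 2000 bp is the Mpo promoter region, at 1047 against 2175 bp.

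The azurophil granule gene Mpo, which encodes the peroxidase that makes hypochlorous acid, had the most peak bases of the 8 loci and the largest drop in bp. Its gene lies at chr11:87793784-87804412 on the plus strand. Knockout samples had 8, 8 and 6 peaks and wild-type samples 13, 12 and 11. The bases in peaks were 5224, 7206 and 5074 bp in knockout and 12366, 11328 and 9253 bp in wild type, so the knockout mean was 53.1% of the wild-type mean. The groups did not overlap in either measure.

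Inside the Mpo locus the largest drops in bp lay in the promoter region and the gene body. In the promoter region (chr11:87793182-87796424), peaks covered 1052, 1113 and 977 bp in knockout and 2567, 2326 and 1631 bp in wild type, so the knockout mean was 48.2% of the wild-type mean. Wild-type samples 1 and 2 each had a second peak in this region, inside the gene. The peak that touches the promoter itself was 1052, 1113 and 977 bp wide in knockout and 1180, 1840 and 1631 bp in wild type (67.6%), so wild-type sample 1 was close to knockout sample 2. A region in the gene body (chr11:87798758-87801705) had peaks of 752, 266 and 0 bp in knockout and 2713, 2824 and 1598 bp in wild type, and knockout sample 3 had no peak there. Between these, a region at chr11:87796744-87797573 had peaks in wild-type samples 1 and 2 only, as did one at chr11:87803289-87803532 near the 3′ end of the gene. Upstream, a region inside Tspoap1 (chr11:87779430-87779782) was also lower in every knockout sample, at 201, 245 and 0 bp against 312, 329 and 314 bp in wild type. The region 3.58 kb before the start site was not set apart, with 419, 905 and 604 bp in knockout and 731, 757 and 679 bp in wild type. The widest region of the locus (chr11:87804159-87808004) runs from the last bases of Mpo into Lpo, the lactoperoxidase gene, and its widths overlapped, at 2238, 3617 and 2701 bp in knockout and 3447, 3178 and 3846 bp in wild type. The lost region of this locus (chr11:87811448-87811792) lies inside Lpo, 7.04 kb beyond Mpo, and was narrow in wild type, at 245, 345 and 217 bp. Without wild-type sample 3 the locus has 3 lost regions, and 2 without wild-type sample 2. It has 0 with all lists brought to one length by their widest peaks, 0 with the widest 50% of peaks and 0 within 5 kb.

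Prtn3 and Elane, neighbouring genes of azurophil proteases, showed narrower peaks and few losses. They lie at chr10:79879667-79883174 and chr10:79886312-79888216, both on the plus strand. Their joint locus had 7, 9 and 6 peaks in knockout and 11, 11 and 10 in wild type, and 4183, 5488 and 4138 bp in knockout against 7452, 7840 and 6617 bp in wild type (63.0%). Both measures were lower in every knockout sample.

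Of the 6 regions there with a peak in all samples, 5 were narrower in every knockout sample. The Prtn3 promoter region (chr10:79879249-79879844) had 299, 412 and 422 bp in knockout and 547, 525 and 532 bp in wild type. The region 1.94 kb before the Prtn3 start site (chr10:79877077-79878371) had 1097, 1191 and 1208 bp in knockout and 1270, 1295 and 1260 bp in wild type, a smaller difference. The stretch between the genes (chr10:79883165-79885193), which begins at the last bases of Prtn3, had 1391, 1700 and 1587 bp in knockout and 1908, 1905 and 1938 bp in wild type. In the Prtn3 gene body, one region (chr10:79881738-79882585) was narrower in every knockout sample, at 437, 572 and 511 bp against 804, 827 and 651 bp. The other (chr10:79880534-79881482) had overlapping widths of 416, 635 and 398 bp in knockout and 877, 738 and 609 bp in wild type. At the Elane promoter (chr10:79886082-79886611) the peak was absent from knockout sample 3 and had 319 and 389 bp in the other knockout samples, against 413, 530 and 380 bp in wild type. The fifth narrower region (chr10:79908172-79909668) lies over the promoter of Med16, a subunit gene of the Mediator complex, at the edge of the locus, with 1254, 1218 and 1237 bp in knockout and 1374, 1449 and 1313 bp in wild type. The lost region (chr10:79864296-79864927) lies inside Plppr3, 14.7 kb before Prtn3, and its outermost 140 bp, reached by the peak of wild-type sample 2 only, also lie in Ptbp1. Without knockout sample 2, or without wild-type sample 3, the locus had 2 lost regions.

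Ctsg, the cathepsin G gene at chr14:56099885-56102574 on the minus strand, sits beside mast cell protease and granzyme genes. Its locus had 1790, 2874 and 1490 bp in peaks in knockout and 3592, 3287 and 2699 bp in wild type, so knockout sample 2 lay above wild-type sample 3 and the groups overlapped (exact permutation p = 0.2, two-sided). They did not overlap without knockout sample 2 or without wild-type sample 3. Both of its regions with a peak in all samples were narrower in every knockout sample. The promoter region (chr14:56101823-56103046) had 522, 668 and 643 bp in knockout and 980, 1210 and 998 bp in wild type, and the region 2.97 kb before the start site (chr14:56104977-56106118) had 824, 972 and 847 bp in knockout and 1142, 1007 and 989 bp in wild type. The other 6 regions of the locus had a peak in some samples only, and none of them was lost or gained. Without knockout sample 2, 1 was lost.

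Fcnb, the ficolin B gene, had the greatest relative drop in bases in peaks of the 10 genes and held 3 of the 5 lost regions. In peak number the relative drop was slightly greater at Ltf (41.2% of wild type) than at Fcnb (42.1%). It lies at chr2:28076479-28084910 on the minus strand. Its locus had 3, 3 and 2 peaks in knockout and 7, 6 and 6 in wild type, and 1172, 1365 and 929 bp in knockout against 3755, 3549 and 4045 bp in wild type, or 30.5% of wild type. The groups did not overlap on either measure.

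The 3 lost regions of Fcnb all lie beyond its 3′ end and in no annotated gene. The nearest (chr2:28075686-28076392) ends 87 bp from the gene and had 678, 412 and 560 bp in wild type. The next (chr2:28067864-28068838), 7.64 kb away, had 703, 829 and 975 bp in wild type. The farthest (chr2:28064132-28065187), 11.3 kb away, had 689, 929 and 1051 bp in wild type. Knockout samples had no peak in any of them, although wild-type peaks in each of them were wider on average than the wild-type peak at the Fcnb promoter. The locus had 3 lost regions whichever single sample was left out, with the widest 50% of peaks and with all lists brought to one length. On the other side of the gene, a region 7.39 kb before the start site (chr2:28091842-28092686) was kept, with 688, 706 and 632 bp in knockout and 785, 676 and 843 bp in wild type. The promoter peak (chr2:28084742-28085171) had 233, 410 and 0 bp in knockout and 401, 401 and 304 bp in wild type.

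**Figure D2:**
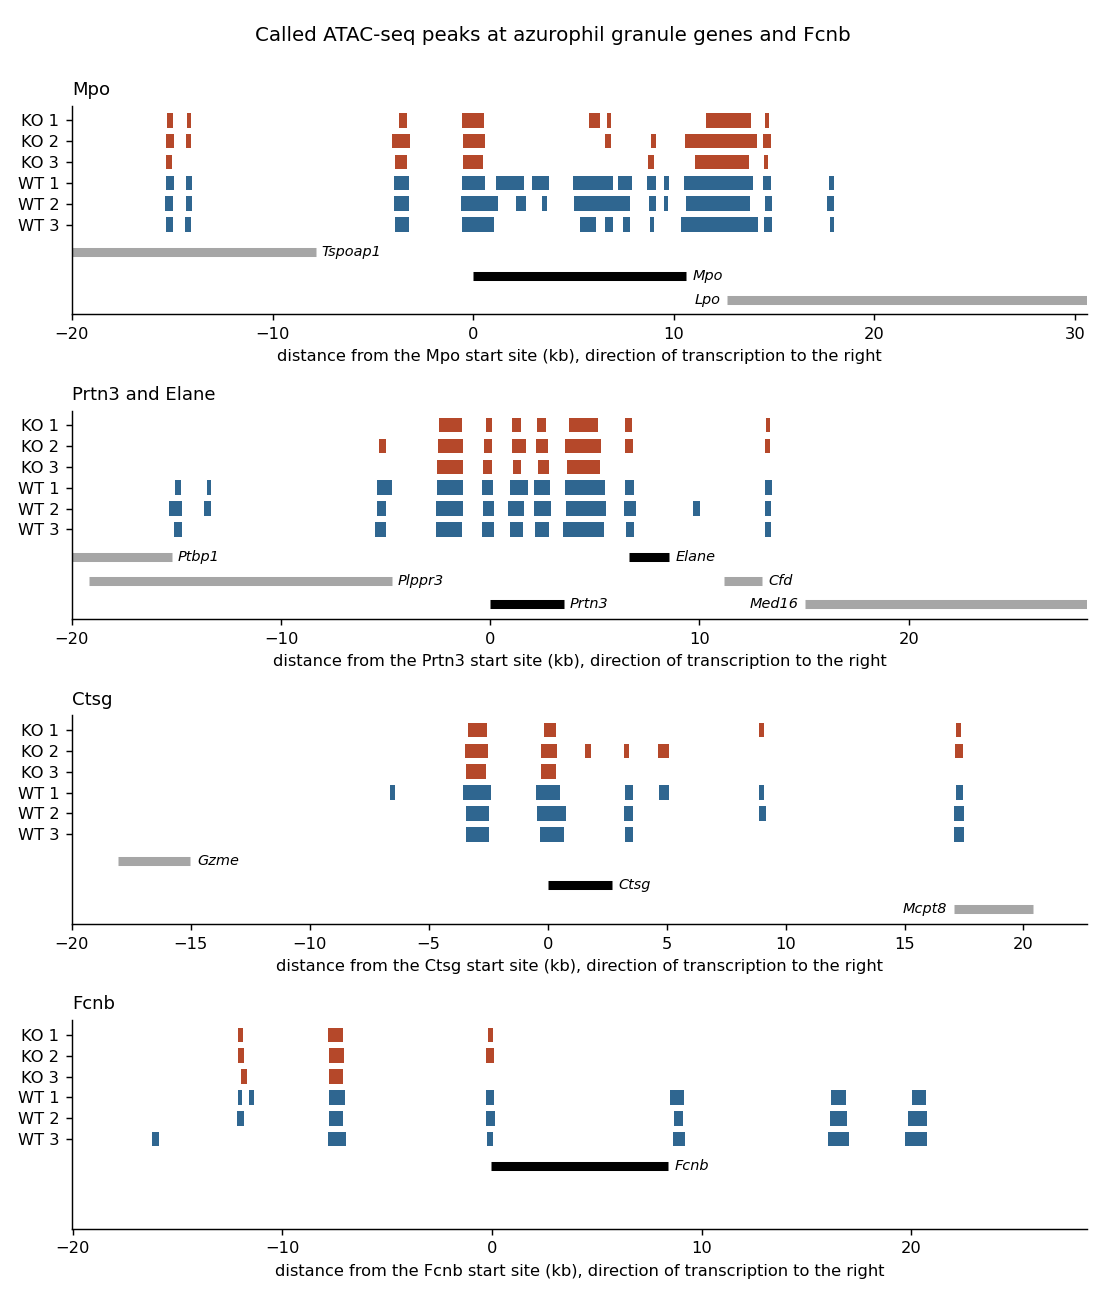
Called peaks (bars drawn to scale) in each knockout sample (KO 1 to 3, upper rows) and wild-type sample (WT 1 to 3, lower rows) at Mpo, at Prtn3 and Elane, at Ctsg and at Fcnb; the horizontal axis is the distance in kb from the named start site, members are black and other protein-coding genes grey. Wild-type peaks fill more of the Mpo gene body, and the 3 peaks to the right of Fcnb are in wild-type rows only.

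Of the specific granule genes, Ltf alone had fewer bases within 20 kb in every knockout sample. Within 50 kb all 3 had fewer, with knockout means of 65.2% (Ltf), 75.2% (Camp) and 72.3% (Ngp) of wild type, and Ngp had 2 lost regions. Ltf, which encodes the iron-binding protein lactoferrin (chr9:111019292-111042766, plus strand), had 2, 2 and 3 peaks in knockout and 6, 6 and 5 in wild type, with 1604, 1941 and 2135 bp in knockout against 3515, 3232 and 3284 bp in wild type (56.6%). The groups did not overlap. No sample had a peak at the Ltf promoter. Regions with wild-type peaks only, each in 2 of the 3 samples, lay at chr9:110999299-110999590, chr9:111009796-111010085, chr9:111033865-111034174 and chr9:111047367-111047638, and were at most 310 bp wide. Because none was in all 3 wild-type samples, Ltf had 0 lost regions. It had 2 without wild-type sample 3, and 1 without knockout sample 3, wild-type sample 1 or wild-type sample 2. With the same number of widest peaks per sample, which drops the narrowest peaks, the peak numbers at Ltf overlapped. The largest drop in bp of a single region lay 16.2 kb beyond Ltf (chr9:111058982-111059647). It had 0, 0 and 325 bp in knockout and 466, 464 and 527 bp in wild type. Most of the bases left in knockout lay in a region over the promoter of Ccrl2, a chemokine-binding receptor gene (chr9:111055953-111057880). It had 1164, 1461 and 1384 bp in knockout and 1741, 1436 and 1788 bp in wild type, which overlapped, and its mean difference of -319 bp was the next largest.

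Camp, the cathelicidin gene (chr9:109847377-109849456, minus strand), had 3, 4 and 3 peaks in knockout and 3 in each wild-type sample. Its promoter peak (chr9:109849415-109849816) had 321, 379 and 289 bp in knockout and 336, 377 and 283 bp in wild type, and the means differed by -2.33 bp. A region 13.5 kb before the start site varied more among wild-type samples than between genotypes, with 619, 415 and 538 bp in knockout and 950, 254 and 1001 bp in wild type. The only narrower region of this locus (chr9:109832272-109833420) lies over the promoter of Nme6, a nucleoside diphosphate kinase family gene, at 968, 871 and 899 bp in knockout and 1118, 1034 and 1121 bp in wild type. Without wild-type sample 2 the bases in peaks at Camp no longer overlapped between genotypes and were lower in knockout.

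Ngp, which encodes a cathelicidin-related protein of mouse granules (chr9:110419808-110423012, plus strand), had 1907, 2027 and 2067 bp in peaks in knockout and 1669, 2073 and 2286 bp in wild type. Wild-type sample 3 alone had a peak at its promoter, of 202 bp. A region inside Klhl18 (chr9:110440538-110441007) was narrower in every knockout sample. It had 219, 288 and 225 bp in knockout and 341, 407 and 408 bp in wild type. The region that was wider in every knockout sample (chr9:110407256-110408734) covers the promoter of Ptpn23, a phosphatase gene, at 1373, 1421 and 1430 bp in knockout and 976, 1303 and 1364 bp in wild type. The values at the Ngp locus therefore come mainly from a neighbouring gene, and the groups overlapped. Without wild-type sample 1 the knockout values were all lower.

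S100a8 and S100a9 (chr3:90669071-90670034, plus strand, and chr3:90692630-90695721, minus strand) had 0 lost and 0 gained regions. The joint locus had 5, 5 and 4 peaks in knockout and 5, 5 and 4 in wild type, with 1583, 1869 and 1226 bp in knockout and 1894, 1761 and 1528 bp in wild type. The bases overlapped, and the equal peak numbers came from partly different regions. The S100a8 promoter peak (chr3:90668757-90669391) had 437, 595 and 491 bp in knockout and 585, 495 and 488 bp in wild type. At the S100a9 promoter, 2 samples of each genotype had a peak, of 235 and 212 bp in knockout and 215 and 218 bp in wild type. A region between the genes, 5.42 kb from S100a9 (chr3:90686729-90687206), had 336, 452 and 229 bp in knockout and 424, 447 and 309 bp in wild type. A region 9.33 kb before S100a8 (chr3:90659559-90659918) was found in knockout sample 3 only among knockouts, at 240 bp, and in all wild-type samples, at 348, 272 and 343 bp. Without knockout sample 3 it counts as lost. Only knockout samples had a peak at 2 further regions, of 219 bp in knockout sample 1 between the genes (chr3:90678756-90678974) and of 247 bp in knockout sample 2 inside S100a9 (chr3:90693577-90693823).

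**Figure D3:**
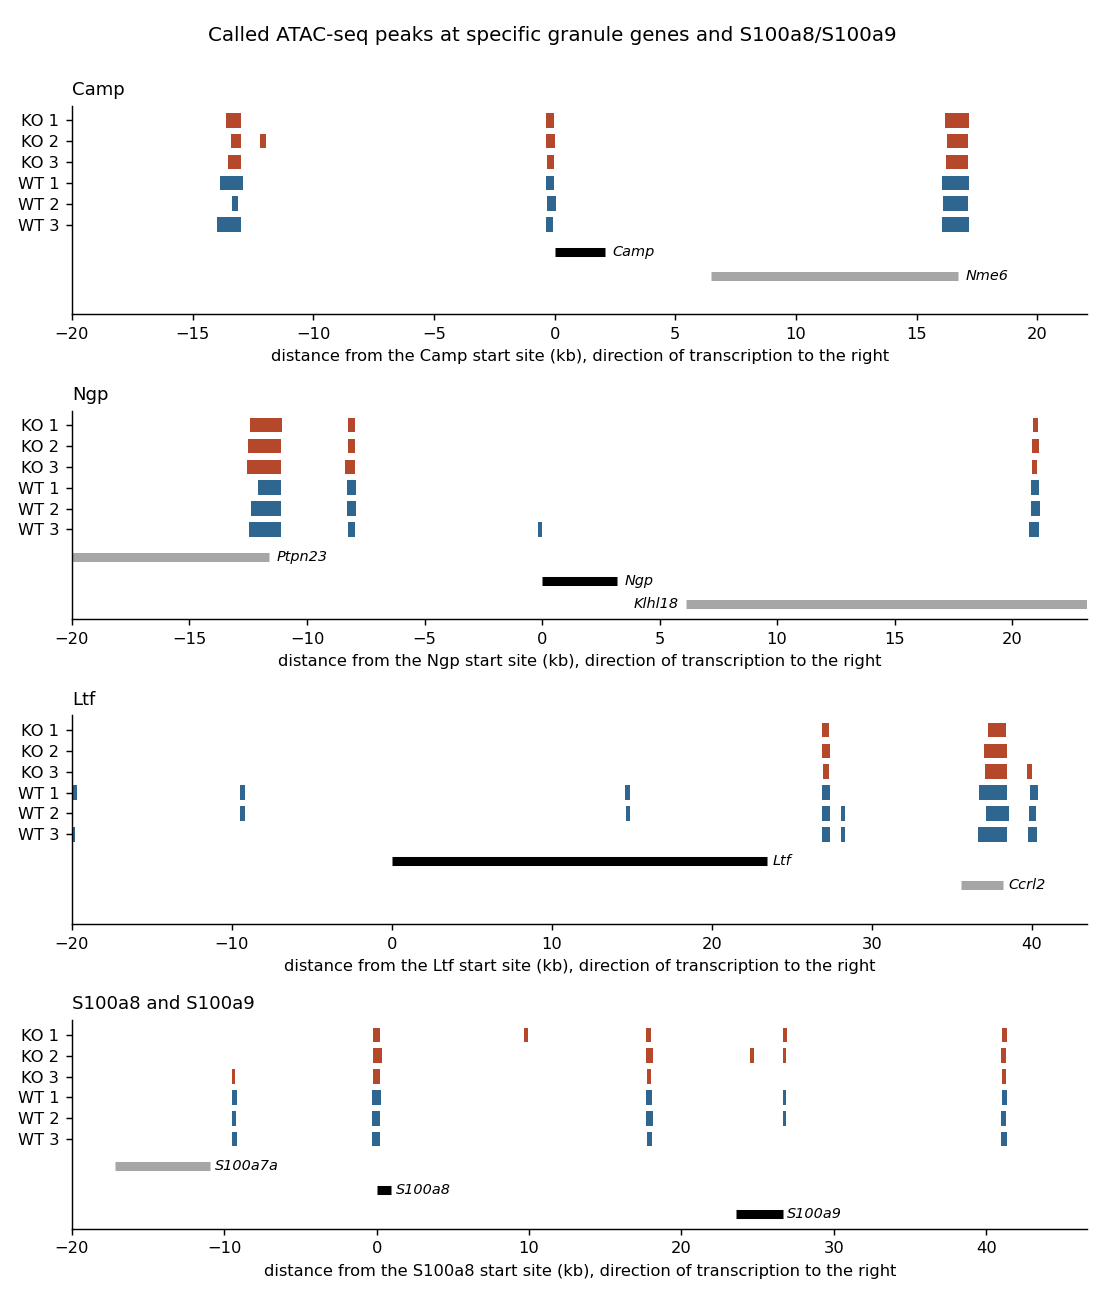
Called peaks in knockout samples (KO 1 to 3, upper rows) and wild-type samples (WT 1 to 3, lower rows) at Camp, at Ngp, at Ltf and at S100a8 and S100a9, drawn as distance in kb from the named start site, with members in black and other protein-coding genes in grey. Peaks at the Camp and S100a8 promoters are present in all 6 rows, and no row has a peak at the Ltf promoter.

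Promoter peaks set the members apart from each other. Mpo, Prtn3, Ctsg, Camp and S100a8 had a promoter peak in all 6 samples, 5 of the 10 members, where 48.4% of 21237 promoters did. Ltf had none in any sample, as had 44.8% of promoters, and 0 of the 10 lost its promoter peak from all knockout samples while keeping it in all wild-type samples, as 0.838% did. Counting only peaks that touch the promoter window, the 3 azurophil promoters among these 5 were narrower in every knockout sample, with knockout means of 67.6% (Mpo), 57.5% (Ctsg) and 70.6% (Prtn3) of wild type. Of the 10283 promoters with a peak in all samples, 29.4% were narrower in this way. The Camp and S100a8 promoters, at 99.3% and 97.1%, overlapped between genotypes (two-sided exact permutation p = 1 and 0.9). A difference between azurophil and later genes as classes was not tested, since genes are not replicates of the genotype.

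**Figure D4:**
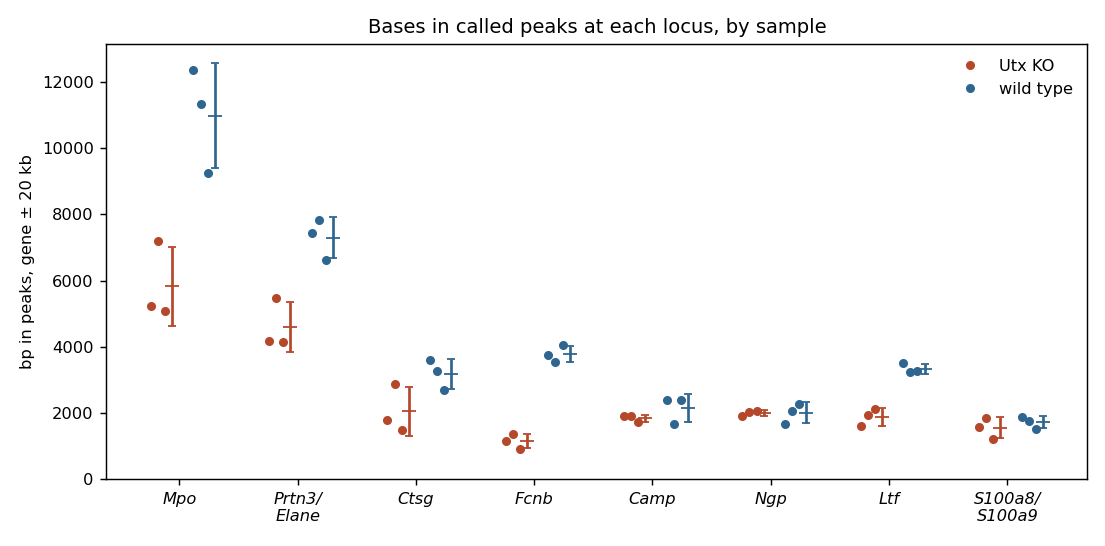
Bases in called peaks (vertical axis, bp) within 20 kb of each locus, 1 point per sample, knockout left and wild type right, with mean and SD over 3 samples beside the points. Knockout points lie below wild-type points at Mpo, at Prtn3 and Elane, at Fcnb and at Ltf, and overlap them at the other 4 loci.

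With each gene taken alone, 6 of the 10 members (Mpo, Elane, Prtn3, Fcnb, Ltf and S100a8) had fewer bases in peaks within 20 kb in every knockout sample, and 0 had more. Of 15498 protein-coding genes with a peak in every sample, 51.0% were lower in every knockout sample and 9.64% higher, so the count of 6 is near the background. Prtn3 and Elane share 10 of the 12 regions of their locus and so are largely counted double in this per-gene count. With shared regions counted once, 4 of the 8 loci were lower in every knockout sample, with a median level of 63.6% of wild type. The S100a8 window alone had 992, 1047 and 960 bp in knockout and 1357, 1214 and 1140 bp in wild type. Fewer peaks in every knockout sample were found for 4 members (Mpo, Prtn3, Fcnb and Ltf), against 28.0% of all genes, and more peaks for 0 members, against 3.92%. Gene by gene, the median knockout level was 66.5% of wild type over the 10 members and 83.7% over all 15498 genes. Fcnb stood far out in the lower tail, with 1.20% of genes at or below its 30.5%. Mpo had 8.59% of genes at or below it, Ltf 11.1%, Prtn3 16.8%, Ctsg 18.1% and Elane 23.9%. Camp (53.9% of genes at or below), Ngp (76.6%), S100a8 (44.4%) and S100a9 (85.5%) lay in the middle or the upper part.

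**Figure D5:**
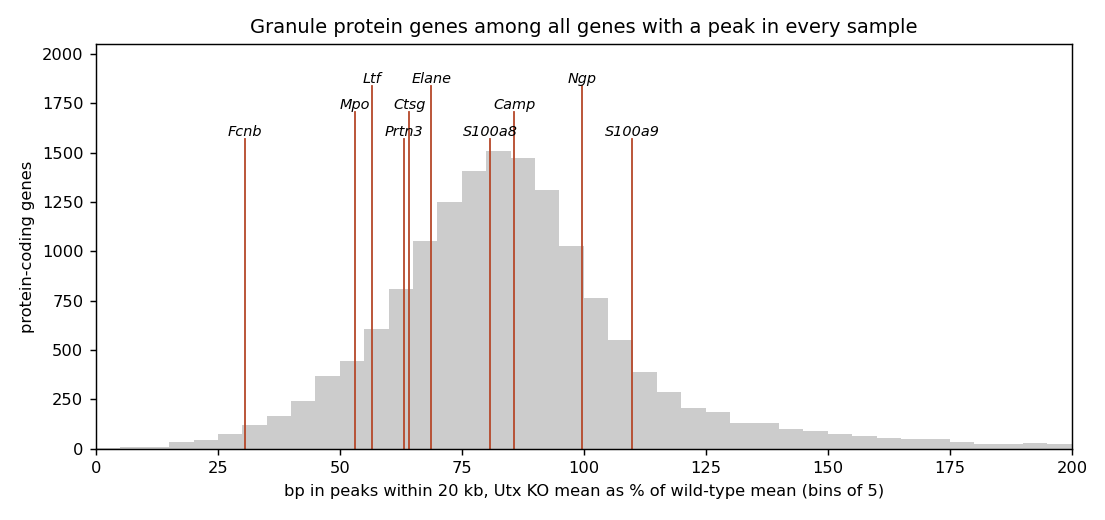
Number of protein-coding genes (vertical axis) by bases in peaks within 20 kb in knockout as a percent of wild type (horizontal axis, in bins of 5, shown up to 200), for genes with a peak in every sample; red lines mark the 10 members. Fcnb, at 30.5%, lies in the lower tail, and S100a9, at 110%, above the median gene at 83.7%.

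Other granule and neutrophil effector genes had shares of lost and gained regions below those near any gene. Their list held 35 genes, of which 34 were in the annotation, and 29 had a peak in every sample. Near them, 13 of 214 regions were lost (6.07%) and 6 gained (2.80%). Bases in peaks were lower in every knockout sample for 10 of the 29 genes and higher for 3, where 51.0% of all genes were lower and 9.64% higher. The median knockout level over the 29 genes was 89.7% of wild type. The members with the most lost or gained regions were Srgn, encoding the granule proteoglycan serglycin (2 lost of 16), Mmp25, a leukocyte membrane metalloproteinase gene (2 lost of 6), Itgam, which encodes the CD11b integrin chain (2 gained of 17), and Padi4, the histone citrullinating enzyme gene (2 gained of 8). Hp tied with these and comes later in the list.

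Cell type markers also differed between the genotypes. All listed markers of stem and progenitor cells (Kit, Cd34, Gata2, Meis1, Hlf and Mecom) had peaks in every sample. Near these 6 genes, bases in peaks ranged from 17088 to 19718 bp in knockout and from 22768 to 25989 bp in wild type. Near 7 granulocyte and monocyte progenitor genes (Cebpa, Cebpe, Gfi1, Csf3r, Csf1r, Spi1 and Irf8) they ranged from 32158 to 40397 bp in knockout and from 30636 to 35214 bp in wild type, and overlapped. Of the 7, Csf3r alone was lower in every knockout sample, at 62.9% of wild type, and Gfi1 and Irf8 were higher, at 148% and 170%. Among all protein-coding genes with a peak in every sample, 51.0% were lower in every knockout sample and 9.64% higher. Erythroid genes had 6497 to 7386 bp in knockout and 20979 to 24037 bp in wild type. Of their 34 regions, 17 were lost (50%), against 10.7% near any gene. B lymphoid genes had 24662 to 32309 bp in knockout and 16024 to 16965 bp in wild type. Of their 60 regions, 13 were gained (21.7%), against 4.05% near any gene. Near 4 eosinophil and mast cell genes, 0 of 24 regions were lost or gained, with 8260 to 10181 bp in knockout and 7113 to 7389 bp in wild type. The 4 genes went different ways. Prg2 was higher in every knockout sample, at 243% of wild type, and Cpa3 was lower, at 66.4%. Epx (101%) and Mcpt8 (60.7%) overlapped between genotypes. One of these genes, Mcpt8, shares its promoter region with the Ctsg locus. Near 3 T lymphoid genes, 0 of 14 regions were lost and 1 was gained, with 4361 to 4778 bp in knockout and 4757 to 5263 bp in wild type. Every marker of these 6 lists had a peak in every sample. The part of cell make-up and of list length in the values at the granule genes was not tested; with the same number of widest peaks in every sample, the members had 33 peaks in knockout and 43.3 in wild type. In that setting 5 of 54 regions were lost (9.26%) and 0 gained, against 7.43% lost and 6.41% gained near any gene.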

How the data were processed

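The deposited files hold 1 list of peaks per sample, giving its chromosome, start and end only. The authors made them with MACS2 on build mm10, per the submitters' processing notes, and replicates were not pooled. No source used here names the aligner, the read filters, the insertion shift or the handling of duplicates. Depth is unknown, so no interval that needs it was computed.

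From these lists, peaks of the 6 samples were merged where they shared at least 1 bp. Regions in or within 20 kb of a gene span (RefSeq, GRCm38.p6) were assigned to it. The width of a sample in a region is the sum of its peaks there. Lost means a peak in all 3 wild-type and 0 knockout samples, gained the opposite. Promoters are the RefSeq windows of 250 bases before to 50 after the start site. A single value was compared by the two-sided exact permutation test over samples; no p is given for sums over the members. The members and gene lists were chosen with earlier results of these data known. All members are named. Of the list of other granule and neutrophil effector genes, the 4 with the most lost plus gained regions are named, in list order where tied. Calls were tested on simulated lists made of whole regions with the same edges in every sample. These lists held no shifted, split or merged peaks and no difference in depth. The test therefore checks only that the code applies the definitions, and not how reliable a call is. Python 3.11.15, numpy 2.4.6 and pandas 2.3.3 were used. Alternatives were other distances, other list lengths, other definitions of a call, each sample left out and a replicate block.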

Additional observations from a re-analysis of the deposited data

How the results depend on the processing

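The lower peak number, bases in peaks and share of the list near the granule genes in knockout kept their direction under every alternative run (distances of 5 and 50 kb, the widest 50% of each list, lists of one length, each sample left out). Leaving out 1 sample gave knockout minus wild-type differences of -19 to -13.5 peaks, -15422 to -12472 bp and -0.0179 to -0.0100 percentage points. The share overlapped between genotypes within 5 kb. Lost regions numbered 5 in the main setting, 1 within 5 kb, 11 within 50 kb, 8 when peaks had to cover 50% of the region, 12 when 2 of 3 samples sufficed, 6 with the widest 50%, and 5 to 10 with 1 sample left out. The share lost was 3.13% (5 kb), 11.5% (50 kb), 13.1% (covering 50%), 19.7% (2 of 3) and 17.6% (widest 50%), against 10.7%, 10.7%, 11.7%, 17.6% and 10.5% near any gene, so its side of the background turned with the setting. The larger counts at 50 kb and with 2 of 3 samples follow from the wider definitions; the other causes were not tested. Gained regions numbered 0 in every alternative run. Regions narrower in every knockout sample numbered 11 to 17 with 1 sample left out, and the share near any gene was not computed in these settings. All settings of this count were chosen after seeing the data. With samples of the same number paired as a replicate block, the differences were -16.3 peaks, -13553 bp and -0.0145 percentage points. The numbers mark no stated pairing, and the correlation of deviations between same-numbered samples was -0.0528, 0.0279 and 0.0211, so this block describes numbers only. At single loci, 302 of 352 recomputed values stayed within the spread between samples (or, for counts, close to the reported count), and 50 moved beyond it. The 302 include the gained counts, which were 0 at every locus in every setting, and the lost counts that stayed at 0, so they overstate stability. The sign of the difference in bases turned in 6 of the 352, all of them among the 302 and at loci whose groups overlapped. At S100a8 and S100a9 it was 72 bp within 5 kb, against -168 bp, and at Ngp 22.8 to 129 bp in 5 settings, against -9 bp. Counting only peaks that touch the promoter, an alternative added after seeing the data, changed the Mpo promoter difference to -503 bp, against -1127 bp. The lists carry no depth, so absence of a peak shows only that none was called.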
